A study of Homo sapiens with 6 samples.

Results

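The transcripts described here encode 9 enzymes that make, split or pass on the nitrogen of glutamine, glutamate, asparagine and alanine: GLS2, GLUL, GLUD1, GLUD2, GOT1, GOT2, GPT, GPT2 and ASNS. They were taken by gene symbol from the array table with every probe that carried the symbol, which gave 13 of 47231 probes and 9 of 30818 named genes. The cells were MDA-MB-231, an established human breast cancer line that the labels describe as triple-negative. They were exposed to riluzole at 25 µM, or to its solvent DMSO (vehicle), with 3 arrays per group, and the study asked which transcripts differ between both treatments. The sample labels give 24 hours of exposure, whereas the series speaks of treatment overnight. Riluzole is a drug for amyotrophic lateral sclerosis that lowers the release of glutamate from neurons. All samples came from this 1 line, and the labels do not say that the 3 samples of a group were separate cultures, so the spread behind the p-values may be technical.

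Glutamine carries nitrogen in the blood and in culture medium. Glutaminase splits it into glutamate and ammonia, glutamine synthetase (GLUL) runs the opposite step, and glutamate dehydrogenase (GLUD1, GLUD2) takes the amino group off glutamate to leave 2-oxoglutarate for the citric acid cycle. Aminotransferases instead hand the amino group of glutamate to another carbon skeleton: the aspartate aminotransferases GOT1 (cytosol) and GOT2 (mitochondria) make aspartate, and the alanine aminotransferases GPT (cytosol) and GPT2 (mitochondria) make alanine. Asparagine synthetase (ASNS) then builds asparagine from aspartate with the amide nitrogen of glutamine, and its gene is a known target of the transcription factor ATF4, which acts when amino acids run short.

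With riluzole, transcripts of ASNS and GPT2 rose, by 1.84-fold and 1.79-fold. GOT1 was 1.35-fold higher on average with all 3 riluzole arrays above all 3 vehicle arrays, but missed the threshold. GLUL, GLUD1 and GOT2 lay within 0.18 log2 units of no difference, and GLS2, GLUD2 and GPT were not detected in a way that allowed a test. In the limma fit over all genes, a gene was called at a Benjamini-Hochberg adjusted p under 0.05. Of the 9 enzymes 6 had a probe that passed the detection filter (a detection p below 0.05 on 3 or more of 6 arrays), and 2 of these 6 were called, both higher. Over all 14887 genes tested, 1.18% were called, and 0.752% were called as higher. The median log2 difference was 0.19 over the 6 enzymes, of which 3 were positive and 3 negative, and 0.00075 over all genes tested. ASNS and GPT2 were already known to be called in these arrays when the list was drawn up.

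**Figure D1:**
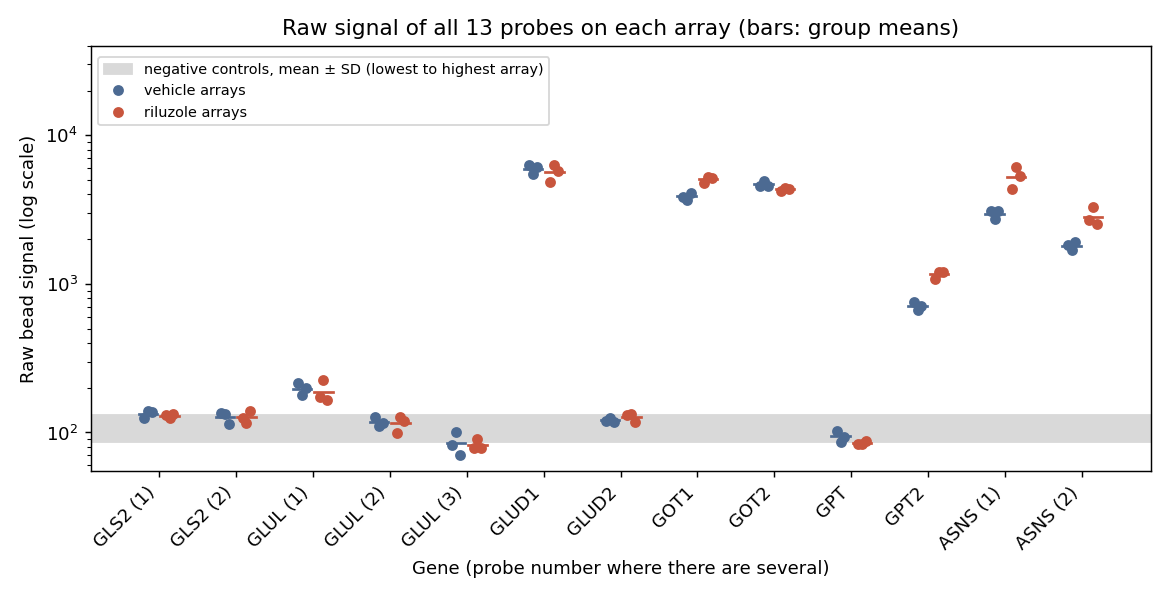
Raw bead signal (log axis) of each of the 13 probes on the 3 vehicle and 3 riluzole arrays, where bars are group means and the grey band spans the mean ± SD of the 770 negative control probes of an array. The ASNS, GPT2 and GOT1 points are separated by treatment. The probes of GLS2, GLUD2 and GPT lie in or near the band, with some GLS2 and GLUD2 points above its upper edge and some GPT points below its lower edge.

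The arrays were alike in quality. Each array detected 20516 to 20959 probes and had a median raw signal of 127 to 133, and the negative control probes averaged 107 to 111. Of the markers set for the line, VIM, CD44 and EGFR were detected on all 6 arrays, and the hormone receptors ESR1 and PGR on 0. Of the 3 probes of ERBB2 (HER2) 1 was detected on all 6 arrays, at a mean of 1374 (vehicle) and 1422 (riluzole) in raw signal. The luminal genes EPCAM (2416 and 2274) and GATA3 (242 and 217) were detected as well, and CDH1 on 1 vehicle array. Of the leukocyte and endothelial markers PTPRC, CD3E and CDH5 were detected on 0 arrays, and PECAM1 on all 6 at a dim signal (203 and 237).

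ASNS, which makes asparagine, was read by 2 probes. The brighter one had raw signals of 3074, 2730 and 3083 on vehicle arrays 1 to 3 and of 4369, 6137 and 5320 on riluzole arrays 1 to 3. Every riluzole array was higher than every vehicle array, and the riluzole arrays were spread more widely in raw signal. After background correction and quantile normalization the group means were 11.47 ± 0.11 with vehicle and 12.34 ± 0.16 with riluzole (log2 units, mean ± SD, n = 3). The fold change was 1.84 (95% CI 1.52 to 2.22), and the limma adjusted p was 0.0201. ASNS ranked 50th by p and 57th by size of rise among the 14887 genes.

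The dimmer ASNS probe had raw signals of 1830, 1684 and 1913 with vehicle and of 2701, 3284 and 2527 with riluzole, again without overlap. In the fit over all 20788 detected probes, in which 0.457% of probes were called as higher, this probe was 1.64-fold higher (95% CI 1.36 to 1.98, limma adjusted p = 0.0455). The brighter probe gave 1.84-fold in the same fit (1.51 to 2.23, adjusted p = 0.0283), so both ASNS probes were called there and their intervals overlapped. The dimmer probe lost its call with median scaling (adjusted p = 0.0567), with the authors' processed values (0.0758) and with no detection filter (0.0737). The brighter one lost it over probes with the authors' processed values (0.0596). With any 1 of the 6 arrays left out, neither probe was called over probes, with adjusted p from 0.0632 to 0.113 for the brighter and from 0.103 to 0.131 for the dimmer probe.

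The ASNS promoter is shown because its amino acid response element is a well known binding site of ATF4. The windows searched hold 250 bases before and 50 after a RefSeq start site. Of the 9 enzymes 7 had a window that was searched, with 9 windows in all. The composite C/EBP-ATF motif was searched as TGATGNAA on both strands and occurs in 3.62% of the 35116 RefSeq windows of this length. It matched in the windows of ASNS and GOT1 and in those of 0 of the other 5 enzymes searched. GPT2 had no window. The search of the enzymes left out the chromosome that carries GPT, so GPT was not searched either. The cyclic AMP response element TGACGTCA, found in 1.85% of the RefSeq windows, matched in 0 of the enzyme windows searched. A match describes letters only, and binding was not measured. The bases before the start site are printed 5′ to 3′ on the minus strand of GRCh38.p14, at chr7:97872409-97872658 for the first ASNS start site and at chr10:99430625-99430874 for GOT1, with the motif in capitals:
ASNS: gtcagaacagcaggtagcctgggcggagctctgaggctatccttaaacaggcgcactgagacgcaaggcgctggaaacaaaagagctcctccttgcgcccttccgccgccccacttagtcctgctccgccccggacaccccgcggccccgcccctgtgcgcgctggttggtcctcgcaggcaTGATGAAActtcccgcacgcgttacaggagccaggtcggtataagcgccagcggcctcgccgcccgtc
GOT1: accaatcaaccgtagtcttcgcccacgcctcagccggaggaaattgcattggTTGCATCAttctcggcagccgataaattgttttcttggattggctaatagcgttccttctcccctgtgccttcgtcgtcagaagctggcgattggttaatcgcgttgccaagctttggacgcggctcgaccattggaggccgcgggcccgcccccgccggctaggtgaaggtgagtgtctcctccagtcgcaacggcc
In ASNS the match begins at position -68 from the start site, in the sense orientation. In GOT1 it begins at position -198 and reads on the opposite strand, so the capitals show its reverse complement. The window of the other ASNS start site held no match.

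GPT2, the mitochondrial alanine aminotransferase, was read by 1 probe. Its raw signals were 752, 662 and 706 with vehicle and 1084, 1212 and 1208 with riluzole. The groups were clearly apart and each was tight. On the normalized scale the means were 9.25 ± 0.08 and 10.09 ± 0.07 log2 units (SD, n = 3). The fold change was 1.79 (95% CI 1.53 to 2.10, limma adjusted p = 0.0151), which placed GPT2 26th by p and 66th by size of rise among all genes tested. Its cytosolic counterpart GPT, best known as a serum marker of liver injury, was detected on 0 of 6 arrays, with raw signals of 102, 86.6 and 93.9 with vehicle and 83.7, 84.1 and 87.6 with riluzole. The rise of GPT2 could therefore not be set against a measured change of GPT.

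The calls of ASNS and GPT2 depended on the arrays used. ASNS stayed called without riluzole replicate 1 (adjusted p = 0.0458). Its adjusted p was 0.0702, 0.0725 and 0.0684 without vehicle replicate 1, 2 or 3, and 0.0709 and 0.0831 without riluzole replicate 2 or 3. GPT2 stayed called without vehicle replicate 1 (0.0479) or riluzole replicate 1 (0.0479). Its adjusted p was 0.0635 and 0.0659 without vehicle replicate 2 or 3, and 0.0565 and 0.0685 without riluzole replicate 2 or 3. The sizes moved little in these fits, between 0.81 and 0.97 log2 units for ASNS and between 0.80 and 0.87 for GPT2. Over all genes, 176 were called with all arrays, 41, 21 and 24 without vehicle replicate 1, 2 or 3, and 41, 30 and 21 without riluzole replicate 1, 2 or 3.

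**Figure D2:**
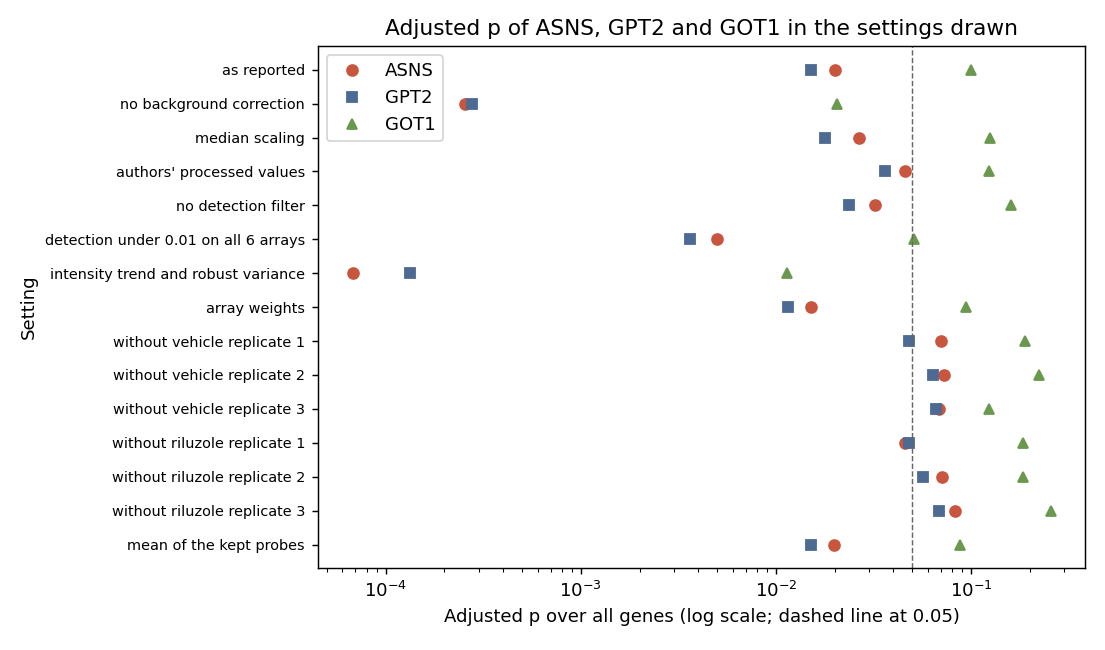
Adjusted p over all genes (log axis, dashed line at 0.05) of ASNS, GPT2 and GOT1 in the fit as reported, in several other settings and in fits with an array left out. The fit with an added fold is not drawn. Nor is the fit with the replicate number as a block, in which ASNS (adjusted p = 0.0868) and GPT2 (0.0763) were not called. ASNS and GPT2 lie under 0.05 in the settings drawn that use all 6 arrays and between 0.0458 and 0.0831 with an array left out, and GOT1 lies under 0.05 in 2 settings.

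The aspartate aminotransferases take part in the malate-aspartate shuttle, which moves reducing equivalents between cytosol and mitochondria. The cytosolic GOT1 had raw signals of 3832, 3691 and 4117 with vehicle and of 4758, 5244 and 5178 with riluzole. All riluzole arrays were above all vehicle arrays. The normalized means were 11.87 ± 0.12 and 12.30 ± 0.05 log2 units (SD, n = 3), a fold change of 1.35 (95% CI 1.14 to 1.60). This did not pass over all genes (limma adjusted p = 0.0999). GOT1 passed without background correction (adjusted p = 0.0205) and in a fit with a robust variance trend over intensity (0.0114), and its adjusted p ran up to 0.256 over the other settings.

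The mitochondrial GOT2 had raw signals of 4555, 4927 and 4567 with vehicle and of 4224, 4390 and 4379 with riluzole, lower on every riluzole array. After normalization its groups overlapped, with means of 12.14 ± 0.11 and 12.07 ± 0.08 log2 units and a fold change of 0.954 (95% CI 0.805 to 1.13, limma adjusted p = 0.824). Within each array, the log2 value of GOT1 minus that of GOT2 was -0.24, -0.42 and -0.16 with vehicle and 0.17, 0.27 and 0.24 with riluzole. This difference between both genes was 0.50 log2 units larger with riluzole, without overlap of the groups. The exact permutation test, two-sided, gave p = 0.10, the smallest that 3 against 3 arrays allow, for the 1 pair of related enzymes in which both were detected. Groups that did not overlap were found for 3 of the 6 enzymes tested, ASNS, GPT2 and GOT1, with riluzole above in each. Of all genes tested, 22.7% had groups that did not overlap in either direction, and 11.8% had every riluzole array above every vehicle array.

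**Figure D3:**
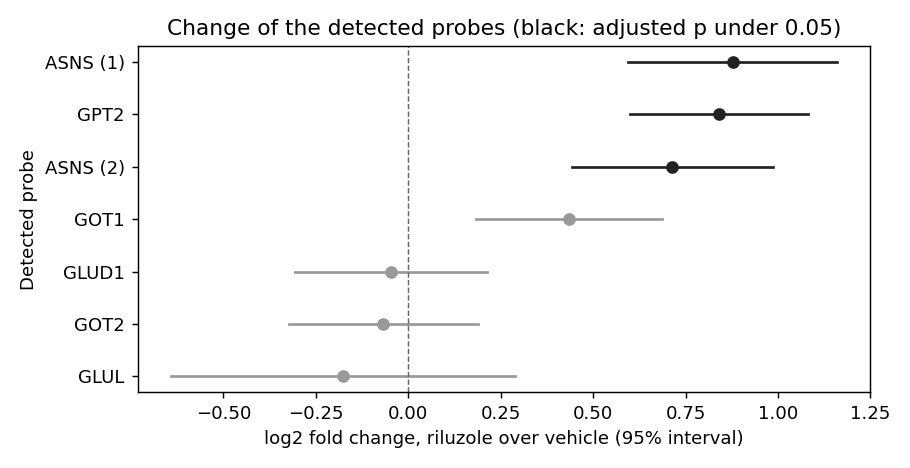
The log2 fold change (riluzole over vehicle) of the 7 detected probes with 95% intervals from the fit over all probes, where black marks an adjusted p under 0.05. The ASNS probes and GPT2 lie between 0.71 and 0.88, GOT1 at 0.43, and the intervals of GLUD1, GOT2 and GLUL include 0.

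GLUL, the enzyme that makes glutamine, was dim. Its brightest probe had raw signals of 214, 179 and 199 with vehicle and of 172, 225 and 166 with riluzole, and it was detected on all 6 arrays. The groups overlapped, and riluzole array 2 was the highest of all 6. The normalized means were 6.69 ± 0.20 and 6.51 ± 0.39 log2 units, with a log2 fold change of -0.18 (95% CI -0.64 to 0.28, limma adjusted p = 0.735). The interval therefore spans both a fall and a rise of modest size. The other GLUL probes were detected on 0 arrays, with mean raw signals of 117 and 84.8 with vehicle and 115 and 82.7 with riluzole.

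GLUD1, the widely expressed glutamate dehydrogenase, was bright and its groups overlapped. Its raw signals were 6299, 5507 and 6077 with vehicle and 4842, 6362 and 5712 with riluzole. The log2 fold change was -0.047 (95% CI -0.30 to 0.20, limma adjusted p = 0.888), and its sign turned without vehicle replicate 3 or riluzole replicate 1. GLUD2, an intronless copy of GLUD1 known from nerve and testis, was detected on 0 arrays, with raw signals of 119, 125 and 117 with vehicle and 131, 133 and 117 with riluzole. The genes are near-identical in sequence, and whether the GLUD1 probe also reads GLUD2 transcripts was not tested.

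GLS2, the liver-type glutaminase, stayed near the level of the negative controls. Its first probe had raw signals of 126, 139 and 137 with vehicle and 131, 124 and 133 with riluzole, and was detected on 1 vehicle array. Its other probe read 136, 132 and 114 with vehicle and 125, 115 and 140 with riluzole, and was detected on 1 riluzole array. Neither separated the treatments.

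The neighbouring steps of the pathway were followed in lists of 41 genes, of which 32 were tested. In the limma fit 0 of the 32 were called and 2 had an unadjusted p under 0.05, PSAT1 and CTPS2, where 1.18% of all genes tested were called and 16.3% had such a p. Their median log2 fold change was -0.026, against 0.00075 over all genes tested, with 13 positive and 19 negative. In 6 of the 32 the groups did not overlap, 4 with riluzole above and 2 below, and 22.7% of all genes had groups that did not overlap in either direction. PSAT1 was the 1 gene of these lists called in any other setting. Its call appeared without background correction, under the stricter detection filter (p below 0.01 on all 6 arrays), and in a fit with a robust variance trend.

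Among the other aminotransferases, 6 of 10 genes were tested. PSAT1, which uses glutamate in serine synthesis, went from 11.66 ± 0.08 to 12.10 ± 0.09 log2 units, 1.36-fold (95% CI 1.15 to 1.60), without overlap of the groups and with an adjusted p of 0.0952 in limma. KYAT1, a kynurenine and glutamine aminotransferase, stood at 1.15-fold (95% CI 0.970 to 1.37), with the groups apart but no call. Its relative KYAT3 differed by 0.091 log2 units on its brightest probe (limma adjusted p = 0.798), while its other 3 probes gave -0.12, -0.25 and -0.29. TAT, ABAT, AGXT and AGXT2 did not pass the detection filter.

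The enzymes that link glutamate with proline and ornithine, in synthesis or breakdown, had a median log2 fold change of -0.031 over 6 tested of 7. PYCR1, which completes proline synthesis in mitochondria, had one of 0.31 (limma adjusted p = 0.431) on its brightest probe, where the vehicle arrays were spread by 0.36 log2 units (SD). Its other probes gave 0.24 and -0.40, so the PYCR1 probes disagree in sign. ALDH4A1, a proline breakdown enzyme, stood at 0.24 (0.558), and PYCR3, a cytosolic relative of PYCR1, at -0.26 (0.667).

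All 9 amidotransferases, which spend the amide of glutamine on nucleotides, amino sugars and NAD, were tested, with a median of -0.096. CTPS2, a CTP synthetase, was at 0.30 (limma adjusted p = 0.172, groups apart) and its relative CTPS1 at -0.24 (0.368, groups overlapping). GMPS, which makes GMP, was at -0.21 with every riluzole array below every vehicle array (0.358).

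Of the 8 genes that use aspartate or asparagine 5 were tested, with a median of -0.22 and 1 positive value. ASL of the urea cycle and arginine synthesis was at -0.32 (limma adjusted p = 0.406). The purine enzymes ADSS2 and ADSL were at -0.24 (0.411) and -0.13 (0.667). The asparagine-splitting ASPG and ASRGL1 did not pass the detection filter. The shuttle partners of GOT1 and GOT2 and the glutamate carriers had a median of -0.017 over 6 tested of 7. The aspartate-glutamate carriers SLC25A12 and SLC25A13 were at -0.16 (0.552) and -0.17 (0.621), and the glutamate carrier SLC25A22 at 0.093 (0.791).

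**Figure D4:**
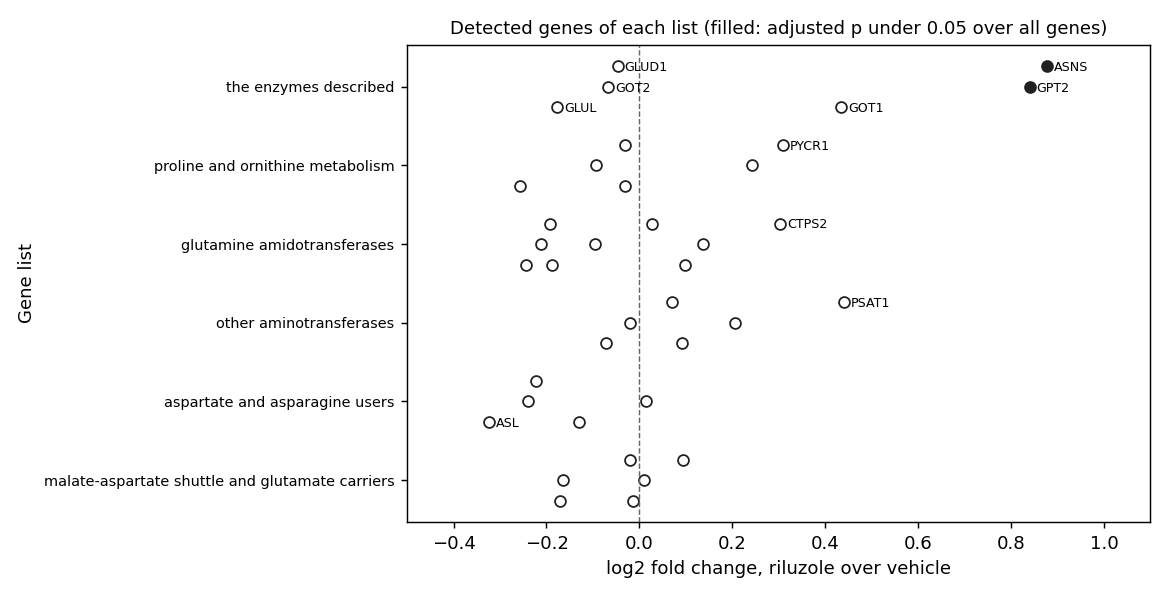
The log2 fold change (riluzole over vehicle) of each detected gene, by list, where filled circles mark an adjusted p under 0.05 over all genes. ASNS and GPT2 are the filled circles, at 0.88 and 0.84, and the 32 genes of the neighbouring steps lie between -0.32 and 0.44.

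The genes whose pattern over the 6 arrays was most like that of ASNS and of GPT2 were found by the root mean square difference of log2 values centred on each gene's own mean. This likeness includes the difference between the treatments, so genes that differ by a similar amount come out as near. For ASNS the nearest were PHGDH (first enzyme of serine synthesis) at 0.048 log2 units, SLC6A9 (a glycine transporter) at 0.063, ATF4 at 0.079, the kinesin KIF20B at 0.083 and the mitotic kinase PLK1 at 0.098, where the median over all genes was 0.48. For GPT2 they were ATF4 at 0.069, GAS2L3 (a linker of the cytoskeleton) at 0.073, the kinesin KIF14 at 0.075, the spindle protein CKAP2 at 0.081 and KIF20B at 0.092, with a median of 0.45 over all genes. The likeness was taken on the brightest detected probe of each gene. For ATF4 the log2 fold change was 0.82 on that probe and 0.57 with the mean of its detected probes. ASNS and GPT2 themselves were 0.099 log2 units apart, and GPT2 was the 6th nearest gene to ASNS.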

How the data were processed

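Total RNA was purified with an RNeasy Plus kit and made into biotin-labelled cRNA with a TotalPrep-96 kit, per the labels' protocols. The array type was not given in the sources used here. Per probe, the authors deposited the average bead signal intensity, which is linear and neither background-subtracted nor normalized, per the file headers and values. The detection p-value of each probe, also deposited by the authors, is the rank of the probe among 770 negative control probes. They also deposited processed intensities whose making is not stated. Set against the raw signals of the same array, these values are linear, uncentred and in the direction of the signal, with column medians of 20.6 to 21.6 and 19.4% to 22.3% of values below 0. They served as an alternative, with values under 16 set to 16.

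With limma 3.58.1 in R 4.3.3, neqc corrected the background by normexp from the detection p-values (offset 16, which draws folds of dim probes toward 1), quantile normalized and took log2, after 979 control rows were left out. Of 47231 probes 43907 carried 1 symbol, 0 several and 3324 none that could be used. RefSeq names of GRCh38.p14 updated 4626 of these symbols, and 12245 that were not placed kept the array's name. Detected probes (20788) were fitted with lmFit and eBayes with group as the only term, both as probes and with each of 14887 genes represented by its brightest detected probe, with Benjamini-Hochberg adjustment over the whole table. The fit was tested on simulated data with independent noise and with changes larger than those of ASNS and GPT2, so smaller changes were not covered. The number of arrays limits the precision. Same-numbered arrays were not paired by the labels. Promoter sequences are from RefSeq.

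Members and lists were chosen with earlier results of these data known. The rule for named genes takes all 9 members, of each list the genes past the threshold or otherwise up to 3 with the smallest p, and the 5 genes most like ASNS and GPT2. Other genes were named after their values were seen. A further gene of the pathway is not reported here. Alternatives left out the background correction, scaled by medians, started from the authors' processed values, dropped the detection filter or raised it to a p below 0.01 on all 6 arrays. Others used a robust variance trend, array weights, a block on replicate number, probe means per gene or an added fold of 1.5, and each array was left out in turn with all steps repeated.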

Additional observations from a re-analysis of the deposited data

How the results depend on the processing

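The count of called genes, 176 in the fit as reported, was 563 without background correction, 94 with the authors' processed values, 70 without a detection filter, 360 with the stricter one, 661 with a robust variance trend, and between 21 and 41 with an array left out. The cause was not tested, except that a changed filter changes the number of genes tested. Of the 9 enzymes 2 were called in the fit as reported, and between 0 and 2 with an array left out. With the replicate number as a block, 22 genes and 0 of the enzymes were called (adjusted p = 0.0763 for GPT2 and 0.0868 for ASNS, and over probes 0.107 and 0.153 for the ASNS probes). Deviations of same-numbered arrays from their group means correlated at -0.15, -0.10 and 0.0011 across genes. Those of arrays with different numbers correlated at -0.060 to 0.15, so no pairing by number was seen. With 3 arrays per group these values cannot settle whether arrays shared a culture or a processing step. Of the values that turned sign, GLUD1 was at 0.0018 without vehicle replicate 3 and 0.016 without riluzole replicate 1 (range -0.095 to 0.016), PYCR3 ran from -0.51 to 0.034 and KYAT3 from -0.012 to 0.16 with an array left out, and KYAT3 was at -0.14 with the mean of its probes. The 10 named genes that were called gave 160 comparisons with an alternative, of which 96 kept the call and 64 lost it, 50 of the 60 with an array left out and all 10 under the block. The other 19 named genes had no call to lose, and in 303 comparisons 5 gained one and 5 turned sign. The difference of GOT1 minus GOT2 between treatments was 0.49 without background correction and between 0.43 and 0.56 with an array left out, a check chosen after seeing the data. Probes near the level of the negative controls, as for GLS2, GLUD2, GPT and GLUL, limit what could be detected. ASL was not tested under the stricter detection filter, which it did not pass.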
